A study of Rattus norvegicus with 6 samples.

Results

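Hyaluronan is a long, unsulfated sugar polymer of the joint, made at the plasma membrane of synovial fibroblasts and released into the synovial fluid, where it lubricates the cartilage. The values given here are for 8 genes of its metabolism in rat RA-FLS (fibroblast-like synoviocytes, with rheumatoid arthritis as the labelled disease state): Ugdh, which makes a precursor sugar, the synthases Has1, Has2 and Has3, the degradation genes Hyal1, Hyal2 and Cemip, and the receptor Cd44. They were taken by gene name from the deposited count table of 34156 genes, and all 8 were found. RA-FLS were wild type by their labels and were treated with 10 ng/mL TNF-α alone (TNF-α group, 3 libraries) or with the same TNF-α dose plus 80 μmol/L emodin, a plant anthraquinone (TNF-α+EMO group, 3 libraries). The cells were bought from a commercial source, and whether the libraries came from separate cultures is not given in the labels. The labels give day 5 for every sample, whereas the study's methods give 1 day of incubation. Every library thus received TNF-α, and no library without TNF-α or with EMO alone was part of the comparison, so the response to TNF-α itself was not measured. The comparison asks how EMO changes the transcripts of TNF-α-treated RA-FLS.

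Hyaluronan is built from 2 activated sugars, UDP-glucuronic acid and UDP-N-acetylglucosamine. UGDH oxidises UDP-glucose to UDP-glucuronic acid, which also feeds the sulfated glycosaminoglycans, and a separate route that starts from fructose-6-phosphate supplies UDP-N-acetylglucosamine. The HAS enzymes join both sugars and extrude the chain through the membrane. HYAL2 and CEMIP shorten long chains at or near the cell surface, HYAL1 cuts the fragments in lysosomes, and CD44 is the main cell surface receptor of hyaluronan.

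The 250 bases before the RefSeq start site are shown for Ugdh, Hyal2 and Hyal1, which were called lower with EMO, and for Cd44, which was not called. These windows were picked by the calls, and those of Has1 and Cemip are only described below. Of the 8 genes, 6 matched the RefSeq promoter table (build GRCr8). Has2 and Has3 did not match. Capitals mark the GC box GGGCGG, the Sp1 motif, on either strand. The TATA box TATAAA, the AP-1 motif TGANTCA and the NF-κB consensus were searched as well, also on both strands, and none of the searched motifs overlapped another in these windows. The windows are chr14:43202268-43202517, plus strand for Ugdh, chr8:117121552-117121801, plus strand for Hyal2, chr8:117129061-117129310, plus strand for Hyal1 and chr3:109699425-109699674, minus strand for Cd44.
Ugdh: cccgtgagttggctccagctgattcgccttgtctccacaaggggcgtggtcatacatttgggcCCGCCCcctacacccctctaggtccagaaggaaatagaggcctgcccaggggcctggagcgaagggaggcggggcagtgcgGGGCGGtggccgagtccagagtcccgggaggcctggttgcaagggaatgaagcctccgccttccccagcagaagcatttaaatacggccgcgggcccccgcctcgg
Hyal2: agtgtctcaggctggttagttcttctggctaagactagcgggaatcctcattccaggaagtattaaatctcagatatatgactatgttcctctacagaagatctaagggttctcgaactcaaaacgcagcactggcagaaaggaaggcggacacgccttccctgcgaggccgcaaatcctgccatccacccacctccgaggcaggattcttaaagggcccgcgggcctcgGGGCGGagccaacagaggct
Hyal1: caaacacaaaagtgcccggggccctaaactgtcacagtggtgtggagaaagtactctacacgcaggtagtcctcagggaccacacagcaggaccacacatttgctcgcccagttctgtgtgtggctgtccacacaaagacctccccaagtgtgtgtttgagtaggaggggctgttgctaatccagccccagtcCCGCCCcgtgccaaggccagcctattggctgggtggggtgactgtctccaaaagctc
Cd44: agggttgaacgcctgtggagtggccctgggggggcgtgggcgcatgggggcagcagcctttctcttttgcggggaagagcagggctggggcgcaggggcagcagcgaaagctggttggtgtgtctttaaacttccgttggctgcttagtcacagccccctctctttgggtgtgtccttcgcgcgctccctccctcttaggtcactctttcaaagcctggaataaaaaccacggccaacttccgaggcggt

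The Ugdh window held 2 GC boxes, the first 187 to 182 and the second 106 to 101 bases before the start. Hyal2 held 1 at 20 to 15 bases and Hyal1 held 1 at 57 to 52 bases before the start. In the Cd44 window these letters were not found. For comparison, 30.5% of the 33469 RefSeq windows of the same length held a GC box. None of these windows matched the NF-κB consensus (3.54% of all windows), the AP-1 motif (6.34%) or the TATA box (12.9%). Of the other matched members, Has1, which was not tested, held none of the motifs. Cemip, which was not called, held 2 GC boxes and a TATA box, the latter 31 to 26 bases before its start. These matches are descriptions of letters and were not tested against the counts.

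The 6 libraries held 16813322 to 17794455 counts on genes. The fibroblast markers Col1a1, Pdgfra and Vim were abundant in the TNF-α group, whereas Thy1, Prg4 and Pdpn, which mark synovial fibroblasts and lining cells, averaged at most 5.21 normalized counts in either group. Dcn, another marker of the fibroblast list, summed to only 5 counts over the TNF-α libraries and to 83 over the TNF-α+EMO libraries. Of the 9 fibroblast markers tested, 7 were lower and 1 was higher in the TNF-α+EMO group past the threshold given below (Lum and Dcn reached the count minimum only through the group where they were high), and the sum of the list was 210813 to 231314 normalized counts with TNF-α alone and 35297 to 38047 with EMO added. Of the markers of other cells, Ptprc, Adgre1, Cd163, C1qa and C1qb (macrophage), Kdr and Emcn (endothelial) and Epcam and Krt5 (epithelial) had at most 3 counts in every library, and the 9 T and B cell markers summed to at most 8.83 normalized counts. Cd14 and Cd68 made up most of the macrophage sum (1205 to 1310 with TNF-α alone and 734 to 804 with EMO added), and Krt8 most of the epithelial sum (9950 to 10812 and 1984 to 2333). Of the 2 epithelial markers tested, Krt8 was called lower and Cldn4 higher. Cldn4 summed to 0 counts over the TNF-α libraries and 61 over the TNF-α+EMO libraries. It reached the count minimum only through the TNF-α+EMO group. The endothelial sum was 70.2 to 76.5 and 16.3 to 22.7, the smooth muscle and pericyte sum 988 to 1057 and 75.7 to 93.7, and the chondrocyte sum 29.3 to 49.0 and 30.9 to 70.3. The part of this drop in fibroblast markers in the results that follow was not tested, and in bulk RNA fewer cells of a type and less RNA per cell cannot be told apart.

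EMO treatment was accompanied by far fewer transcripts of Ugdh and Has2 and by fewer of Has3, Hyal1 and Hyal2. The level of the receptor Cd44 differed by less than the spread between replicates. Genes were compared by edgeR's quasi-likelihood test over the 13614 genes that reached 10 counts in 3 or more libraries, with Benjamini-Hochberg adjustment over all of them. A gene counts as called here where the adjusted p was below 0.05 and the groups differed by more than 1 on the log2 scale, and positive values mean more with EMO. Of the 8 genes, 7 had enough counts to be tested. Ugdh, Has2, Has3, Hyal1 and Hyal2 were called lower, and Cd44 and Cemip were not called. Across all genes tested, 47.3% were called, 27.8% lower and 19.5% higher, so a large share of the transcriptome differed as well and a call alone does not set a gene apart. The median log2 fold change of the 7 tested genes was -1.47, against -0.01 over all genes. Has3 met the count minimum in the TNF-α libraries but not in the TNF-α+EMO libraries taken by themselves, so that a difference was built into its being tested. Without the fold threshold the same number, 5, passed at an adjusted p below 0.05, against 80.9% of all genes. In 6 of the 8 genes, all lower with EMO, the libraries of both groups did not overlap. That was the case for 82.9% of all genes tested, of which 42.5% lower and 40.3% higher as shares of all genes.

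**Figure D1:**
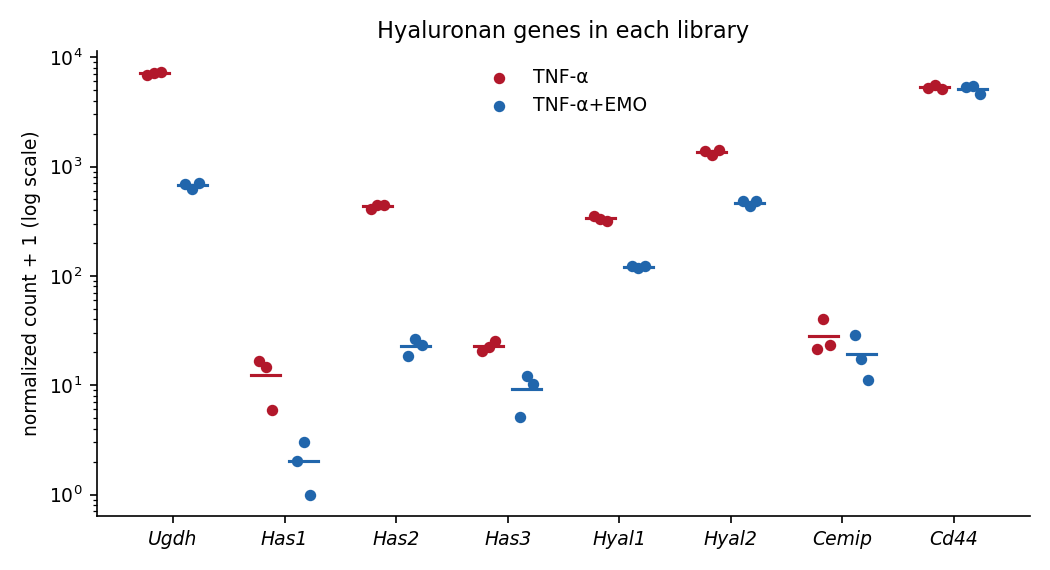
Normalized counts plus 1 (log axis) of the 8 hyaluronan genes in each library, with 3 points per group and a line at the mean. The groups are apart for Ugdh, the synthases, Hyal1 and Hyal2, and overlap for Cemip and Cd44.

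Ugdh (ENSRNOG00000002643, chromosome 14, 44479614 to 44502845, plus strand, in the deposited Rnor_6.0 coordinates) was the most abundant of the 8 in the TNF-α group. It had 7035, 7386 and 7527 counts with TNF-α alone and 669, 609 and 686 with EMO added. Every TNF-α+EMO library lay far below every TNF-α library, and the spread within either group was small. The means were 7145 ± 222 and 671 ± 41.4 normalized counts (SD, n = 3 each), a 10.7-fold fall, or a log2 fold change of -3.41 (SE 0.07, adjusted p = 1.3e-11). Of all genes tested, 9.1% had a lower log2 fold change.

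Has2, the main hyaluronan synthase of mesenchymal cells, fell further than Ugdh. It (ENSRNOG00000004854) lies on chromosome 7 from 96438046 to 96464049 (minus strand). Its counts were 413, 456 and 454 with TNF-α alone and 17, 25 and 22 with EMO added, so the highest EMO library was far below the lowest without EMO. The normalized count was 431 ± 22.2 without and 21.8 ± 4.05 with EMO (SD, n = 3 each), a 19.7-fold fall or -4.29 on the log2 scale (standard error 0.16, 95% interval -4.65 to -3.94, adjusted p = 9.1e-10). A lower log2 fold change was found in 6.29% of all genes tested. The 95% intervals of Has2 and Ugdh (-3.57 to -3.26) did not overlap.

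Has3, a synthase thought to make shorter chains (ENSRNOG00000059362, chromosome 19, 39063998 to 39077722, plus strand), was near the lower limit of what these libraries can measure. It had 20, 22 and 25 counts with TNF-α alone and 4, 11 and 9 with EMO added. The groups did not overlap, but the EMO libraries differed among themselves by more than the TNF-α libraries. The log2 fold change was -1.40 (standard error 0.40, 95% interval -2.29 to -0.51, adjusted p = 0.0078 by edgeR). The last 143 bases of Has3 overlap Chtf8 on the opposite strand, which had 1995 to 2523 counts per library and was not called (log2 fold change -0.04), and since the strand setting of the counting is not given, the reads of this stretch cannot be assigned with certainty.

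Has1 (ENSRNOG00000010994, chromosome 1, 59720612 to 59732409, minus strand), the remaining synthase, had too few counts to be tested. It had 16, 14 and 5 counts with TNF-α alone and 1, 2 and 0 with EMO added. The counts summed to 35 and 3, a ratio of 11.1 after scaling, with an exact 95% interval of 3.51 to 56.5 that covers counting error only. Without the count minimum, edgeR gave it a log2 fold change of -3.33 (adjusted p = 0.0015).

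**Figure D2:**
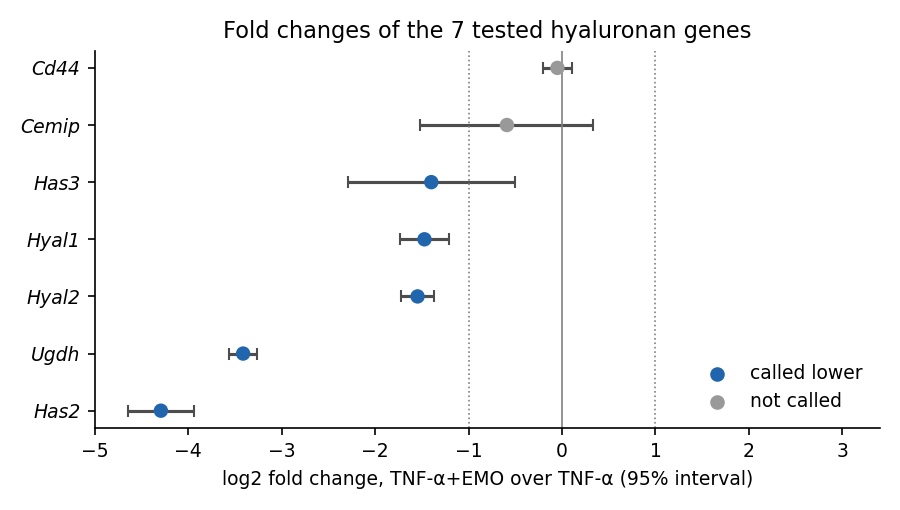
Log2 fold changes (TNF-α+EMO over TNF-α) of the 7 tested hyaluronan genes with 95% intervals from edgeR, where dotted lines mark the threshold of 1 in either direction. Has2 (-4.29) and Ugdh (-3.41) lie farthest from 0, Has3, Hyal1 and Hyal2 lie between -1.55 and -1.40, and the interval of Cd44 is narrow around 0.

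Within the synthase family, Has2 gave most of the transcripts in both groups. Per kilobase of gene length, Has2 took 90.4%, 91.7% and 94.8% of the summed reads of Has1, Has2 and Has3 with TNF-α alone and 79.5%, 70.3% and 80.3% with EMO added. Every EMO library had a smaller Has2 share than every TNF-α library, by 15.6 percentage points on average (two-sided exact permutation test over libraries, p = 0.1, the smallest that 3 libraries against 3 allow). The EMO shares rest on 22 to 38 HAS counts per library, so that a few reads of Has3 shift them.

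The hyaluronidases Hyal2 (ENSRNOG00000031420) and Hyal1 (ENSRNOG00000015858) are neighbours on chromosome 8 (116324040 to 116328978 and 116332796 to 116335435, both plus strand), with 3817 bases between them. Hyal2, a membrane-anchored enzyme, had 1414, 1307 and 1467 counts with TNF-α alone and 463, 428 and 476 with EMO added. Hyal1, the lysosomal enzyme, had 361, 339 and 325 counts and 119, 114 and 119 counts. In both genes the replicates of a group lay close together and the groups were well apart.

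Hyal2 was 2.92-fold lower with EMO, at 1364 ± 79.9 and 467 ± 25.2 normalized counts (SD, n = 3 each), or a log2 fold change of -1.55 (SE 0.08, adjusted p = 1.3e-08). Hyal1 fell from 334 ± 18.9 to 120 ± 3.17, 2.78-fold, or a log2 fold change of -1.47 (SE 0.12, adjusted p = 4.6e-07). The share of Hyal2 in the reads of both genes per kilobase was 77.4% ± 1.5 with TNF-α alone and 76.5% ± 0.571 in the TNF-α+EMO group, a difference of -0.89 percentage points that was within the spread of the replicates (exact permutation test, p = 0.5).

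Hyal3, the next gene of the cluster, 1076 bases beyond Hyal1, had 48, 44 and 42 counts with TNF-α alone and 41, 51 and 38 with EMO added. Its log2 fold change was 0.02 (95% interval -0.51 to 0.56), so the direction of Hyal1 and Hyal2 was not seen in it, although its sign turned with the scaling and with the libraries included. Hyal3 overlaps Naa80 on the same strand over 3179 bases, with up to 715 counts for Naa80, so its counts are uncertain.

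Cemip, the hyaluronan depolymerising protein of fibroblasts (ENSRNOG00000012442, chromosome 1, 146069771 to 146226462, minus strand), was barely detected. It had 21, 40 and 23 counts with TNF-α alone and 27, 16 and 10 with EMO added, and the groups overlapped. The log2 fold change was -0.59 with an interval of -1.51 to 0.33 (adjusted p = 0.21). Without TNF-α+EMO replicate 1 it was -1.04 and passed the threshold (adjusted p = 0.046). Its paralog Cemip2, a hyaluronidase of the cell surface, was expressed at a much higher level. It had 4812, 5195 and 4683 counts with TNF-α alone and 176, 164 and 149 with EMO added, 28.6-fold lower with EMO (log2 fold change -4.84, standard error 0.09, adjusted p = 5.6e-12). Its interval was -5.03 to -4.65.

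Cd44 (ENSRNOG00000006094, chromosome 3, 92696313 to 92783658, minus strand) was at a high level in both groups. Its counts were 5330, 5698 and 5217 with TNF-α alone and 5131, 5278 and 4552 with EMO added, with TNF-α+EMO replicate 3 the lowest, and the groups overlapped. The means were 5289 ± 243 and 5110 ± 413 normalized counts (SD, n = 3 each). The log2 fold change was -0.05 (standard error 0.07, adjusted p = 0.53), and its interval of -0.21 to 0.11 leaves room only for small differences. The sign turned to 0.01 without TNF-α+EMO replicate 3. The counts are per gene, so a shift between CD44 splice forms could not be seen.

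**Figure D3:**
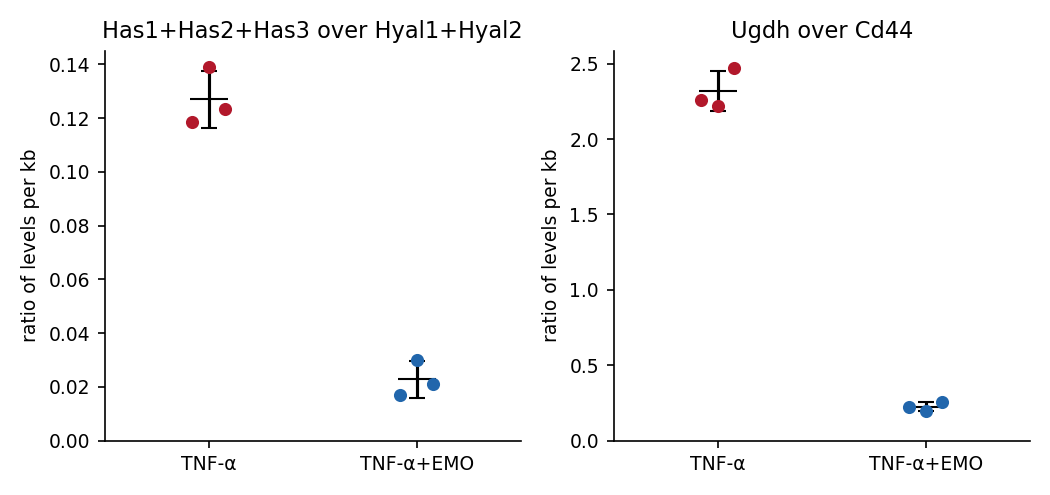
Ratios of levels per kilobase within each library, with 3 points per group and the mean ± SD. The left panel shows the summed synthases over Hyal1 and Hyal2 and the right panel Ugdh over Cd44, and both ratios are lower in every TNF-α+EMO library.

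The order of the genes was compared by level per length, as CPM (over the TMM effective library size) per kilobase. In the TNF-α group the levels were 179 ± 5.56 for Ugdh, 77.5 ± 3.56 for Cd44, 39.8 ± 2.33 for Hyal2, 11.6 ± 0.658 for Hyal1 and 6.01 ± 0.309 for Has2 (SD, n = 3), and no neighbours in this order overlapped. Has1 (0.317), Cemip (0.228) and Has3 (0.182) followed, and their libraries overlapped. In the TNF-α+EMO group Cd44 came first at 74.9 ± 6.06, before Ugdh at 16.8 ± 1.04, Hyal2 at 13.6 ± 0.736, Hyal1 at 4.17 ± 0.11 and Has2 at 0.305 ± 0.0565, again without overlap between neighbours. Cemip (0.151), Has3 (0.0685) and Has1 (0.0285) followed, where Cemip lay below Has2 in every library, and Cemip and Has3 as well as Has3 and Has1 overlapped.

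Ugdh and Cd44 thus changed places. The ratio of Ugdh to Cd44 was 2.26, 2.22 and 2.47 with TNF-α alone and 0.223, 0.198 and 0.258 with EMO added. The ratio of the summed synthases to the summed hyaluronidases Hyal1 and Hyal2 was 0.118, 0.139 and 0.124 without EMO and 0.0169, 0.0302 and 0.0212 with EMO. Both ratios were formed after the values of the single genes were seen, so they are given as a description with no test. They were lower in every TNF-α+EMO library and do not depend on the scaling between libraries, since each is taken within a library. The ratio of synthases to hyaluronidases leaves out Cemip2. Its level per kilobase was 39.7 with TNF-α alone and 1.39 with EMO added, where Hyal2 had 39.8 and 13.6. Cemip2 thus fell further than Hyal2, and the size of the drop in this ratio depends on which genes are counted as hyaluronidases. A ratio that includes Cemip2 was not formed.

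The genes around these 8 were grouped into 5 lists with 92 genes. Of these, 74 were tested, 33 called lower and 11 called higher, where 27.8% and 19.5% of all genes were. Some of them passed the count minimum through the group where they were high, as given below, so nothing is read from these pooled counts. Of the 18 enzymes and transporters of UDP-sugar precursors, all tested, 6 were called higher and 1 lower, against 19.5% and 27.8% of all genes. Their median log2 fold change was 0.62. Gfpt2, an isoform of the enzyme that commits fructose-6-phosphate to the UDP-N-acetylglucosamine route, had 30, 30 and 25 counts with TNF-α alone and 978, 988 and 922 with EMO added. It rose 35.6-fold (log2 fold change 5.15, standard error 0.11, adjusted p = 2.1e-11), whereas its paralog Gfpt1, with 7294 ± 117 and 6955 ± 484 normalized counts, was not called (log2 fold change -0.07).

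Later steps of the same route were also higher. Gnpnat1, the acetyltransferase, rose 3.64-fold from 375 ± 31.6 to 1363 ± 87.0 normalized counts. Uap1, which forms UDP-N-acetylglucosamine, rose 3.62-fold from 1249 ± 7.12 to 4521 ± 150. Nagk, a kinase that salvages N-acetylglucosamine, rose 3.98-fold, and its TNF-α+EMO libraries ranged from 5766 to 7686 counts. Gnpda2 and Amdhd2, which act in the reverse direction towards fructose-6-phosphate, rose 6.47-fold and 2.62-fold, where Gnpda2 overlaps Guf1 with up to 805 counts. Pgm3 passed the test but not the fold threshold (log2 fold change 0.64). The gene of the list called lower was Hk1, a hexokinase (log2 fold change -1.65), whereas its paralog Hk2 was not called (0.60). On the branch of UDP-glucuronic acid, Ugp2, which makes the UDP-glucose that UGDH uses, had a log2 fold change of 0.51. Its adjusted p was 1.0e-04 by edgeR, but it was also under the fold threshold. The fall of Ugdh was thus not shared by Ugp2, the enzyme before it (95% intervals -3.57 to -3.26 and 0.34 to 0.69).

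**Figure D4:**
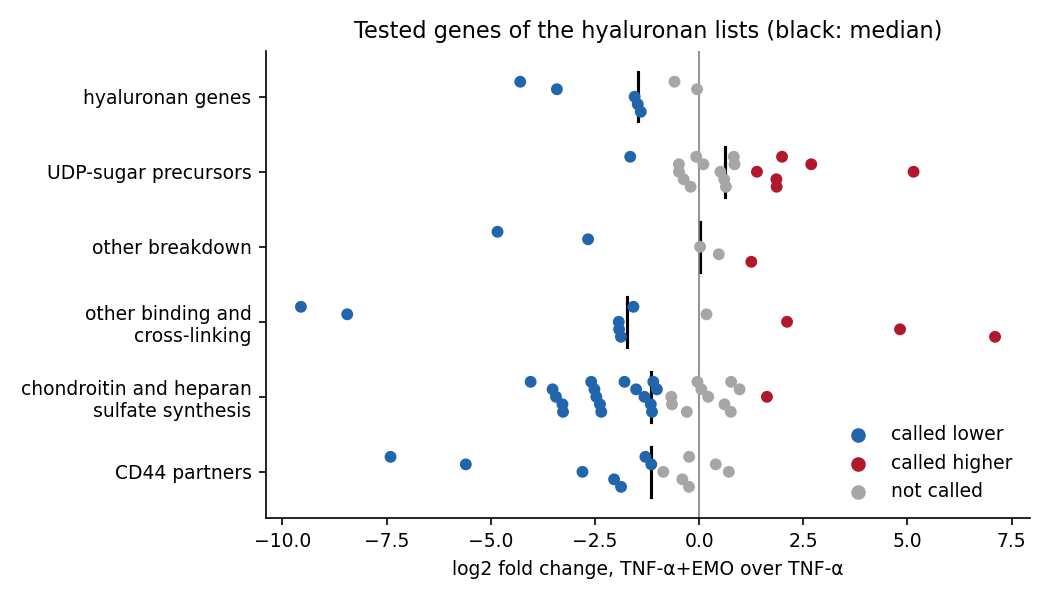
Log2 fold changes (TNF-α+EMO over TNF-α) of every tested gene in the hyaluronan gene list and in 5 lists around it, coloured by call, with a black line at the median of each list. The median is above 0 for the UDP-sugar precursors (0.62) and the other breakdown genes (0.02) and below 0 for the rest.

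Of 9 other breakdown genes, 5 were tested, and Hyal4, Hyal5, Hyal6 and Spam1 had 0 counts in every library, which allows up to 3 counts per library. The lysosomal exoglycosidases that finish the digestion of hyaluronan differed in direction. Gusb, beta-glucuronidase, fell 6.34-fold from 1914 ± 108 to 302 ± 32.8 normalized counts (log2 fold change -2.66, adjusted p = 5.1e-10), and overlaps Vkorc1l1, which had at most 21 counts. Hexa, a subunit of beta-hexosaminidase, rose 2.39-fold from 3394 ± 46.9 to 8095 ± 315 (log2 fold change 1.25, adjusted p = 4.2e-09). With Cemip2 (above), 2 of the 5 were called lower and 1 higher, where 27.8% and 19.5% of all genes were, and with so few genes nothing is read from these counts.

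Among 23 other genes that bind or cross-link hyaluronan, 10 were tested, 6 called lower and 3 higher, beside 27.8% and 19.5% of all genes. Of these 10, Ptx3 and Tnfaip6 met the count minimum in the TNF-α libraries but not in the TNF-α+EMO libraries taken by themselves. For Itih2, Ambp and Hapln3 it was the other way round. Their difference was thus built into their being tested, and the counts of the list support nothing. The median of the list was -1.73 on the log2 scale. Itih5 was not analysed here. Vcan, versican, a large proteoglycan that aggregates with hyaluronan, had 38619, 42036 and 38733 counts with TNF-α alone and 120, 115 and 91 with EMO added, 349-fold lower (log2 fold change -8.45, standard error 0.11, adjusted p = 1.1e-12). Ptx3, pentraxin 3, which takes part in cross-linking, had 1640, 1728 and 1664 counts and then 3, 2 and 1, where every library with EMO was at or under the floor of 3 counts. The ratio of the summed counts was 800, with an exact 95% interval of 367 to 2180 that covers counting error only.

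Tnfaip6, a TNF-induced hyaluronan-binding protein that transfers heavy chains onto the polymer, had 49, 50 and 37 counts with TNF-α alone and 9, 14 and 11 with EMO added (log2 fold change -1.92, standard error 0.31, adjusted p = 1.6e-04). Of the other receptors, Hmmr, which also acts at the mitotic spindle, fell 3.81-fold and Layn, layilin, 3.67-fold, and Lyve1, with 13, 18 and 7 counts without and 0 in every library with EMO, was not tested. Hapln4, a link protein, fell by 1.58 on the log2 scale. The genes called higher had few counts: Itih2, a heavy chain, had 0 counts in every TNF-α library and 20, 12 and 18 with EMO, Ambp, bikunin, had 0, 0 and 1 and then 14, 13 and 10, and Hapln3 had 11, 4 and 8 and then 32, 35 and 29.

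Sulfated glycosaminoglycans draw on the same UDP-glucuronic acid. Of 29 genes of chondroitin and heparan sulfate synthesis, 28 were tested, 17 called lower and 1 higher, beside 27.8% and 19.5% of all genes, and the median of the list was -1.14 on the log2 scale. Xylt1, which starts these chains on core proteins, fell from 1419 ± 58.4 to 131 ± 12.7 normalized counts, 10.8-fold. The sulfotransferases Chst11, Ust and Hs6st1 fell 16.5-fold, 11.5-fold and 9.71-fold. B3gat3, which adds the glucuronic acid of the linker to the core protein, was the gene called higher, 3.09-fold.

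Of 13 partners, ligands and sheddases of CD44, all tested, 7 were called lower, beside 27.8% of all genes, and 6 were not called. Called in either direction were 53.8% of the list and 47.3% of all genes, a share near the background that is no result about the list. The list's median was -1.15 on the log2 scale. Spp1, osteopontin, a ligand of CD44, fell 48.5-fold from 82091, 82668 and 87281 to 1564, 1738 and 1655 counts. The proteinases that act with or on CD44 fell as well, Mmp9 171-fold, Mmp14 6.96-fold and Adam17 3.66-fold. Ezr, ezrin, which ties CD44 to the actin cortex, had a log2 fold change of -0.24 (adjusted p = 0.018), under the fold threshold. Protein was not measured.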

How the data were processed

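Poly(A)-selected paired-end libraries of rat RA-FLS were sequenced. The authors cleaned the reads (FastQC and Trimmomatic in the submitters' processing notes), aligned them with HISAT2 to Rnor_6.0 and deposited raw counts per gene and library, without normalization. The counting program, strand setting and annotation version are not given in the sources used here. The deposited FPKM values, which the authors scaled by gene length and mapped reads, served for 1 alternative. The authors' own comparison (group means, fold changes and p-values) was not used. Groups come from the treatment labels. The methods call the 3 libraries of a group biological replicates, but no label says that they came from separate cultures, so p-values measure the spread between these libraries.

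TMM scaling and the fit used edgeR 4.0.16 under R 4.3.3 (robust quasi-likelihood, adjusted p by Benjamini-Hochberg over 13614 genes). The common biological coefficient of variation was 0.121. The standard error is the absolute log2 fold change divided by the square root of F. Normalized counts are scaled to the mean effective library size. Libraries held 16813322 to 17794455 counts, and 3 counts are taken as the floor. DESeq2 1.42.0, other scalings, filters, thresholds, the replicate block and leaving out each library were alternatives. The leave-one-out fits tested the same 13614 genes as the main fit, while the genes called could differ. The fits were tested on simulated counts. There far fewer genes were changed than were called here, in equal numbers up and down. The simulation therefore does not check the scaling under so broad a difference. The genes named are the 8 members and 9 genes fixed by name. Up to 4 called genes of each list with the largest change and a mean of at least 100 counts are named as well. Gfpt1, Pgm3, Amdhd2, Ugp2, Hk1, Hk2, Hapln3, Hapln4, Itih2, Ambp, Lyve1 and B3gat3 were named after their values were seen. So were Thy1 and the other markers, and the overlapping genes. The members and lists were chosen with earlier results of these data known. The 2 ratios of levels were added after the data were seen.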

Additional observations from a re-analysis of the deposited data

How the results depend on the processing

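The 5 genes called lower (Ugdh, Has2, Has3, Hyal1 and Hyal2) were also 5 under DESeq2, DESeq2's size factors, upper quartile scaling, library totals and edgeR's own filter, and 5 to 6 when a library was left out. Without a count minimum they were 6, with Has1. At an absolute log2 fold change over 2 they were 2, and 3064 genes in all and 5 higher and 18 lower genes of the 5 lists were called. With no fold threshold, 11008 genes in all and 23 higher and 42 lower genes of the 5 lists were called. Library totals moved the median of all genes to -0.12, against -0.01. The log2 fold change of Cd44 was 0.0094 without TNF-α+EMO replicate 3, -0.097 to 0.0094 when a library was left out and -0.16 with library totals. That of Hyal3 was -0.087 with library totals and -0.016 with upper quartile scaling, and -0.11 to 0.11 when a library was left out. The adjusted p of Ezr by edgeR was above 0.05 without TNF-α replicate 3 (0.087) or TNF-α+EMO replicate 1 (0.051), and Cemip was called without the latter. The Has2 share differed by -17.4 to -12.4 percentage points when a library was left out and by -21.5 without length scaling, and the Hyal2 share by -1.39 to -0.029.

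The replicate numbers are shared by both groups. Deviations from the group mean correlated between libraries of the same number by 0.019, -0.0068 and 0.068, against -0.013 for differing numbers, so the numbers were not taken to pair the libraries. With the replicate number as a block, 6421 genes were called against 6442, with 5 hyaluronan genes lower and 11 higher and 33 lower in the lists, and the log2 fold change of Has2 was -4.30. With 3 libraries a group, differences in Has1, Has3 and Cemip are limited by their few counts.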
